A study of Mus musculus with 8 samples.

Results

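The genes described here are known targets of hypoxia-inducible factors (HIFs) together with the enzymes of glycolysis, measured in the mouse retina after prolonged hyperoxia. The list held 33 genes, drawn up by what they are known to do, but with earlier results of these data known. Of these genes, 32 had a probe set on the array that the platform annotation assigns to a single gene symbol. In all, 19938 genes were so represented. *Gpi1* had no such probe set and is not analysed here. For 7 genes with several such probe sets, the one with the highest mean over all arrays was used. Retinas of C57BL/6J mice raised in dim cyclic light were compared after 14 days in 75% oxygen and in normoxic controls of the same age. Exposure began at postnatal day 83 to 90, and the labels list no genetic modification in any group. The 4 groups were the hyperoxia-exposed inferior, control inferior, hyperoxia-exposed superior and control superior retina, with 2 Affymetrix Mouse Gene 1.0 ST arrays each. Each sample pooled retinal regions of 2 animals, 1 male and 1 female, and whether inferior and superior samples of equal number share their animals is not stated. The p-values therefore measure only the spread between these pooled samples.

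HIFs are transcription factors whose alpha subunits are hydroxylated by oxygen-dependent enzymes and then degraded. When oxygen is scarce the alpha subunits persist, pair with a beta subunit and bind hypoxia response elements in the promoters and enhancers of genes for glucose uptake, glycolysis, lactate export, mitophagy and angiogenesis. The mature retina is known for a high rate of glycolysis even in the presence of oxygen, much of it in photoreceptors, and its outer layers are supplied with oxygen by diffusion from the choroid.

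Signal was the deposited log2 value of a probe set, and a change was called at an adjusted p under 0.05 from limma, with adjustment over all 28853 probe sets. Averaged over both regions, 12 of the 32 genes (37.5%) fell after hyperoxia and 0 rose. Of all probe sets, 0.121% fell and 0.447% rose. This average takes all arrays as independent, which would not hold if inferior and superior samples share animals. The 12 were *Pfkl*, *P4ha1*, *Pdk1*, *Ankrd37*, *Pgam1*, *Pfkfb3*, *Bnip3*, *Pfkp*, *Kdm3a*, *Pgk1*, *Ddit4* and *Aldoa*, and their falls ran between 43.2% and 22.8% of the control level. In the inferior retina 4 genes fell (*Pfkl*, *P4ha1*, *Pdk1* and *Pgam1*) and 0 rose, against 0.0624% of probe sets lower and 0.43% higher. In the superior retina 0 genes passed in either direction, against 0.00347% of probe sets lower and 0.0139% higher, and 16 of the 32 (50%) had an unadjusted p under 0.05, all with lower signal after hyperoxia, against 2.16% of probe sets lower and 3.43% higher. The same unadjusted threshold was met by 19 genes in the inferior retina (59.4%), all lower, against 4.43% of probe sets lower and 4.96% higher. The calls depended on single arrays. Each of the 12 was lost on leaving out at least 1 array, with adjusted p then reaching 0.0537 for *P4ha1* and 0.209 for *Pfkp*, and 0 passed without control superior replicate 2. The inferior count was 0 without hyperoxia inferior replicate 2. RNA came from whole retinal regions, so fewer cells of a type and less RNA per cell cannot be told apart.

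The median difference over the 32 genes was -0.37 on the log2 scale in the inferior retina (22.8% lower), -0.19 in the superior retina (12.5% lower) and -0.24 averaged over both regions, while the medians over all probe sets were 0.005, 0.002 and 0.004. Signal was lower after hyperoxia in 29 of the 32 genes in the inferior retina, against 48.4% of probe sets. In the superior retina it was lower in 27, against 49.4% of probe sets. Counts of the 32 genes, here and below, take *Hk1* by the probe set used. Its other probe set was higher after hyperoxia, by 0.17 (inferior) and 0.10 (superior). On 18 of the 32 (56.2%), all 4 hyperoxia-exposed arrays lay below all 4 control arrays, an arrangement found for 2.58% of all probe sets. Within the inferior retina both exposed arrays lay below both control arrays for 26 genes (81.2%, against 18.1% of probe sets), and within the superior retina for 19 (59.4%, against 17.2%). *Epo*, which encodes the red cell growth factor erythropoietin, was read on a dim probe set. *Epo* was the only gene of the 32 whose exposed arrays all lay above the controls. That arrangement was found for 838 of all 28853 probe sets, so a single such gene does not set these genes apart.

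**Figure D1:**
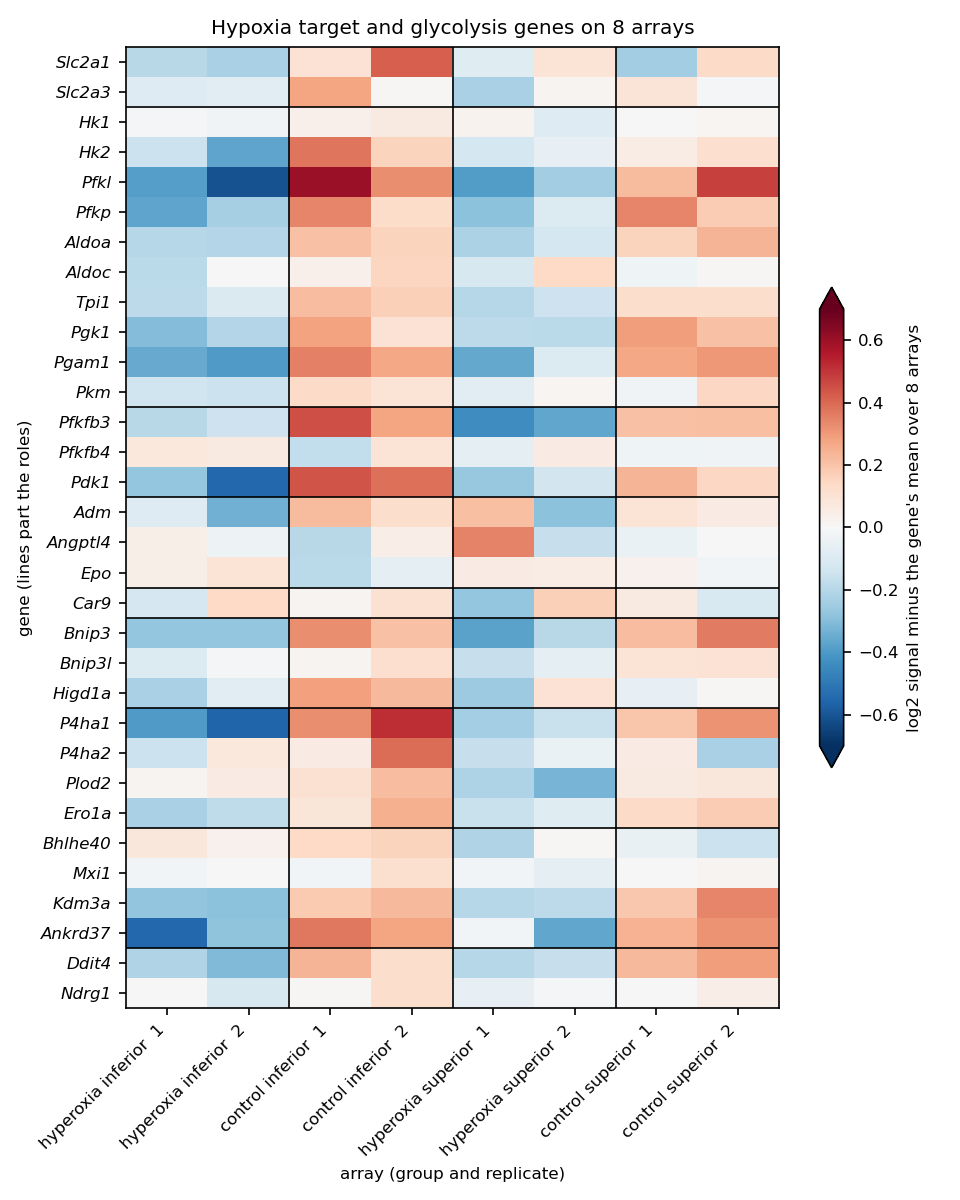
Log2 signal of the 32 genes (rows, grouped by role) on the 8 arrays (columns), each value minus the gene's mean over all arrays, with red above and blue below that mean. The exposed columns of both regions are mostly blue and the control columns mostly red, as for *Pfkl*, *P4ha1* and *Pdk1*. Genes that do not follow that pattern include *Angptl4*, *Epo*, *Car9* and *Pfkfb4*, and in the superior retina also *Slc2a1* and *Aldoc*.

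Promoter sequence was examined because many of these genes moved together and are known HIF targets. RefSeq promoters (GRCm38.p6), running from 250 bases before to 50 bases after the start of transcription, were matched for 26 of the 32 genes. The letters searched were ACGTG and GCGTG, the core of the hypoxia response element, on both strands, that is also CACGT and CACGC, and overlapping matches were each counted, so that CACGTG counts as 2. Taking the promoter with the most matches for each gene, 25 of the 26 genes (96.2%) held at least 1 match, against 46.7% of 27025 genes, and 19 (73.1%) held 2 or more, against 22.9%. Over single promoters the shares were 78.4% of 37 and 43.8% of 32851. All 12 genes that fell held a match, as did 13 of the 14 with a promoter that did not pass the test, *Tpi1* being the one without. These promoters also had more CG dinucleotides, with a median of 23 per promoter against 7 over all genes, and both motifs contain CG. The parts of this base composition and of the choice of known HIF targets in the match counts were not tested. A match is only these letters, not a binding site.

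Stretches of 120 bases are shown for 6 of the genes that fell, each the stretch of its promoter with the most matches, to display how the letters are spaced. Capitals mark the matches. *Pfkl* (chr10:78009845-78009964, minus strand) had a single match and *Pgam1* (chr19:41911682-41911801, plus strand) had 3. In *Pgk1* (chrX:106186902-106187021, plus strand) both matches were of the ACGTG type. In *Pfkfb3* (chr2:11502116-11502235, minus strand) and *Bnip3* (chr7:138909521-138909640, minus strand) a palindromic CACGTG accompanied other matches. In *P4ha1* (chr10:59323094-59323213, plus strand) the 2 matches shown, of 3 in the promoter, were of the GCGTG type.
Pfkl: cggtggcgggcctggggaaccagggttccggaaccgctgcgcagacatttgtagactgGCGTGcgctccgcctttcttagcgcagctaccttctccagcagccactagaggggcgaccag
Pgam1: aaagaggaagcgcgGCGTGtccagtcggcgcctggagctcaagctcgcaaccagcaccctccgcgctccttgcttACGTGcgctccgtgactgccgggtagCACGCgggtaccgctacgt
Pgk1: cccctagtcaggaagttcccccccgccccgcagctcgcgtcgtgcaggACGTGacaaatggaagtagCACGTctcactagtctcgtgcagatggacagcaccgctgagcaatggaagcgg
Pfkfb3: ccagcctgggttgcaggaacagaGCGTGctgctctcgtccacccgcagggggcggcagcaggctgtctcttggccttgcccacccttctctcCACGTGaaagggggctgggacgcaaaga
Bnip3: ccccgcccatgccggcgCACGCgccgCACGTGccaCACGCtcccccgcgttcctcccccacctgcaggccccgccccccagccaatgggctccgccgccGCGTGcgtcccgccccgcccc
P4ha1: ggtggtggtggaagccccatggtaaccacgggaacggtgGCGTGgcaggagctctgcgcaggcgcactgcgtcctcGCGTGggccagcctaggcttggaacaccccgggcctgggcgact

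Glucose uptake was represented by *Slc2a1* and *Slc2a3*, the genes of glucose transporters GLUT1 and GLUT3, and neither passed the test in any comparison. *Slc2a1* measured 11.45 and 11.42 on the exposed inferior arrays, against 11.75 and 12.07 on the control inferior arrays. In the superior retina it measured 11.57 and 11.74 on the exposed arrays, against 11.41 and 11.78 on the controls. The exposed inferior arrays lay below their controls and the superior groups overlapped, with differences of -0.47 (SE 0.15, adjusted p = 0.338) and 0.06 (SE 0.15, adjusted p = 0.985). *Slc2a3* had an inferior difference of -0.22 and a superior difference of -0.14.

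Of the 10 glycolytic enzymes measured, 5 fell over both regions, and the median difference of the 10 was -0.41 in the inferior retina, -0.33 in the superior retina and -0.36 over both. *Pfkl* encodes the liver isoform of phosphofructokinase, which catalyses the committed step of glycolysis. Its probe set (10370376) measured 10.44 and 10.22 on the exposed inferior arrays, against 11.43 and 11.15 on the control inferior arrays, with 10.43 and 10.59 on the exposed superior arrays, against 11.05 and 11.30 on the control superior arrays. All exposed arrays lay below all control arrays. *Pfkl* fell by 0.96 in the inferior retina (SE 0.14, adjusted p = 0.0272), or 48.7%, and by 0.82 over both regions (SE 0.10, adjusted p = 0.0106), while the superior difference of -0.67 did not pass (SE 0.14, adjusted p = 0.448).

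*Pgam1*, which encodes phosphoglycerate mutase, a late step of the pathway, measured 11.14 and 11.09 on the exposed inferior arrays, against 11.84 and 11.76 on the control inferior arrays. In the superior retina it measured 11.13 and 11.40 on the exposed arrays, against 11.76 and 11.80 on the controls. The groups did not overlap in either region, and exposed superior replicate 2 was the highest of the exposed arrays. *Pgam1* fell by 0.69 in the inferior retina (SE 0.10, adjusted p = 0.0361) and by 0.60 over both regions (SE 0.07, adjusted p = 0.0127). Of its 2 other probe sets 1 held identical values and the other passed as well, and *Pgk1* showed the same. Such probe sets may also read near-identical gene copies, which was not tested.

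*Pfkp*, the platelet isoform of phosphofructokinase, measured 11.31 and 11.45 on the exposed inferior arrays, against 12.02 and 11.81 on the control inferior arrays, with 11.39 and 11.59 on the exposed superior arrays, against 12.02 and 11.86 on the control superior arrays. It fell by 0.49 over both regions, with an adjusted p of 0.04999 that lies at the threshold (SE 0.08). *Pgk1*, phosphoglycerate kinase, which yields ATP directly, measured 11.70 and 11.80 on the exposed inferior arrays, against 12.29 and 12.10 on the control inferior arrays, with 11.82 on both exposed superior arrays, against 12.30 and 12.21 on the control superior arrays. Its fall of 0.44 over both regions was nearly equal in the regions taken singly, at -0.45 and -0.44 (adjusted p over both = 0.0353). *Aldoa*, an aldolase, measured 13.09 and 13.08 on the exposed inferior arrays, against 13.50 and 13.45 on the control inferior arrays, with 13.07 and 13.17 on the exposed superior arrays, against 13.45 and 13.53 on the control superior arrays. The exposed and control arrays of all 3 genes were fully apart, and *Aldoa* fell by 0.37 over both regions (SE 0.06, adjusted p = 0.0438).

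The other 5 enzymes did not pass. *Hk2*, the hexokinase of muscle and other highly glycolytic tissue, was lower on all exposed than on all control arrays and differed by -0.53 in the inferior retina and -0.17 in the superior retina (adjusted p over both = 0.149). *Tpi1*, triose phosphate isomerase, was likewise fully apart, at -0.33 and -0.30 (adjusted p over both = 0.0787). The differences over both regions were -0.18 for the pyruvate kinase gene *Pkm*, -0.08 for the aldolase gene *Aldoc* and -0.05 for *Hk1*, whose exposed and control arrays overlapped. The *Hk1* probe set used lists a single accession that is not from RefSeq, and the other *Hk1* probe set, which lists RefSeq transcripts, had the opposite sign at 0.13, so no direction is given for *Hk1*.

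Of the 3 genes that regulate glycolytic flux and pyruvate use, 2 fell. *Pfkfb3* encodes an enzyme that makes the allosteric activator of phosphofructokinase. It measured 7.96 and 8.01 on the exposed inferior arrays, against 8.61 and 8.43 on the control inferior arrays, with 7.72 and 7.79 on the exposed superior arrays, against 8.36 on both control superior arrays. Here the superior difference (-0.61, SE 0.09, adjusted p = 0.245) was more negative than the inferior one (-0.54, SE 0.09, adjusted p = 0.0602), and over both regions *Pfkfb3* fell by 0.57 (SE 0.07, adjusted p = 0.00872). *Pfkfb4*, of the same enzyme family, had an inferior difference of 0.11 and a superior difference of 0.02, and its groups overlapped.

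*Pdk1* encodes a kinase that inhibits pyruvate dehydrogenase and so limits the entry of pyruvate into the citric acid cycle. It measured 7.71 and 7.43 on the exposed inferior arrays, against 8.42 and 8.36 on the control inferior arrays. In the superior retina it measured 7.71 and 7.85 on the exposed arrays, against 8.22 and 8.12 on the controls. The lowest array was exposed inferior replicate 2, and the groups were apart in both regions. *Pdk1* fell by 0.82 in the inferior retina (SE 0.11, adjusted p = 0.0226) and by 0.61 over both regions (SE 0.08, adjusted p = 0.0166), and the superior difference was -0.39 (adjusted p = 0.723).

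Of the 4 genes for collagen hydroxylases and protein oxidation in the endoplasmic reticulum, 1 fell. *P4ha1* encodes a catalytic subunit of collagen prolyl hydroxylase. It measured 8.81 and 8.65 on the exposed inferior arrays, against 9.54 and 9.73 on the control inferior arrays, with 8.98 and 9.05 on the exposed superior arrays, against 9.40 and 9.52 on the control superior arrays. The exposed inferior arrays were the lowest and the control inferior arrays the highest of the 8. *P4ha1* fell by 0.90 in the inferior retina (SE 0.11, adjusted p = 0.0106), or 46.4%, and by 0.67 over both regions (SE 0.08, adjusted p = 0.00787), and the superior difference was -0.45 (adjusted p = 0.543).

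*P4ha2*, the gene of the other catalytic subunit listed, measured 7.40 and 7.62 on the exposed inferior arrays, against 7.61 and 7.94 on the control inferior arrays, with 7.39 and 7.50 on the exposed superior arrays, against 7.61 and 7.32 on the control superior arrays. Its groups overlapped in both regions. *Plod2*, a collagen lysyl hydroxylase, measured 7.23 and 7.27 on the exposed inferior arrays, against 7.32 and 7.43 on the control inferior arrays, with 6.996 and 6.88 on the exposed superior arrays, against 7.27 and 7.29 on the control superior arrays. Its difference was more negative in the superior retina (-0.34, adjusted p = 0.662) than in the inferior retina (-0.12, adjusted p = 0.727). *Ero1a*, an oxidase that drives disulfide bond formation, lay lower on all exposed arrays, with differences of -0.37 (inferior) and -0.28 (superior).

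Among the 3 mitochondrial proteins 1 gene fell. *Bnip3*, a mitophagy receptor, measured 9.77 on both exposed inferior arrays, against 10.37 and 10.25 on the control inferior arrays, with 9.67 and 9.85 on the exposed superior arrays, against 10.26 and 10.41 on the control superior arrays. The groups were apart by about the same amount in both regions, and *Bnip3* fell by 0.56 over both (SE 0.07, adjusted p = 0.0155). Its other probe set had a difference of -0.33 that did not pass (adjusted p = 0.293). *Bnip3l*, a related receptor, differed by -0.17 over both regions (adjusted p = 0.462), with every exposed array below every control array. *Higd1a*, a protein of the inner mitochondrial membrane, measured 8.37 and 8.52 on the exposed inferior arrays, against 8.89 and 8.83 on the control inferior arrays, with 8.35 and 8.70 on the exposed superior arrays, against 8.54 and 8.61 on the control superior arrays. Its inferior groups were apart (-0.41, adjusted p = 0.314) and its superior groups overlapped (-0.05, adjusted p = 0.985). The other *Higd1a* probe set differed by -0.18 in the inferior and by -0.05 in the superior retina.

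In the list headed transcription and chromatin, in which *Ankrd37* was also placed, 2 of 4 genes fell over both regions. *Ankrd37*, which encodes an ankyrin repeat protein, measured 7.62 and 7.89 on the exposed inferior arrays, against 8.54 and 8.45 on the control inferior arrays, with 8.15 and 7.81 on the exposed superior arrays, against 8.42 and 8.48 on the control superior arrays. Its exposed replicates differed from each other more than its control replicates, and its difference of -0.60 over both regions passed (SE 0.10, adjusted p = 0.0395). *Kdm3a*, a histone demethylase, measured 8.81 and 8.80 on the exposed inferior arrays, against 9.27 and 9.31 on the control inferior arrays, with 8.89 and 8.90 on the exposed superior arrays, against 9.28 and 9.43 on the control superior arrays. Exposed replicates of *Kdm3a* nearly coincided in each region, and it fell by 0.47 (SE 0.06, adjusted p = 0.0167).

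*Bhlhe40*, a transcriptional repressor, measured 8.22 and 8.17 on the exposed inferior arrays, against 8.27 and 8.29 on the control inferior arrays, with 7.92 and 8.14 on the exposed superior arrays, against 8.08 and 7.99 on the control superior arrays. Its superior groups overlapped, and the difference over both regions was -0.05. *Mxi1*, an antagonist of Myc, also differed by -0.05. Of the 2 stress response genes, *Ddit4*, an inhibitor of mTOR signalling, measured 8.68 and 8.58 on the exposed inferior arrays, against 9.13 and 9.01 on the control inferior arrays, with 8.69 and 8.73 on the exposed superior arrays, against 9.12 and 9.18 on the control superior arrays. *Ddit4* fell by 0.44 over both regions (SE 0.06, adjusted p = 0.0236), with a difference of -0.44 in each. *Ndrg1*, which responds to several stresses, differed by -0.09, with every exposed array below every control array by a small margin.

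The 3 secreted factors and the carbonic anhydrase gene gave 0 calls. *Adm* (the vasodilator peptide adrenomedullin), *Angptl4* (an inhibitor of lipoprotein lipase), *Epo* and *Car9* (a membrane-bound carbonic anhydrase that balances pH) all had probe sets with a mean under 6 on the log2 scale. Their differences over both regions were -0.25, 0.10, 0.12 and -0.04 in that order. *Epo* measured 5.00 and 5.06 on the exposed inferior arrays, against 4.77 and 4.90 on the control inferior arrays, with 5.02 and 5.01 on the exposed superior arrays, against 4.99 and 4.94 on the control superior arrays. The gap between exposed and control *Epo* arrays was small, and the difference did not pass (adjusted p = 0.618).

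**Figure D2:**
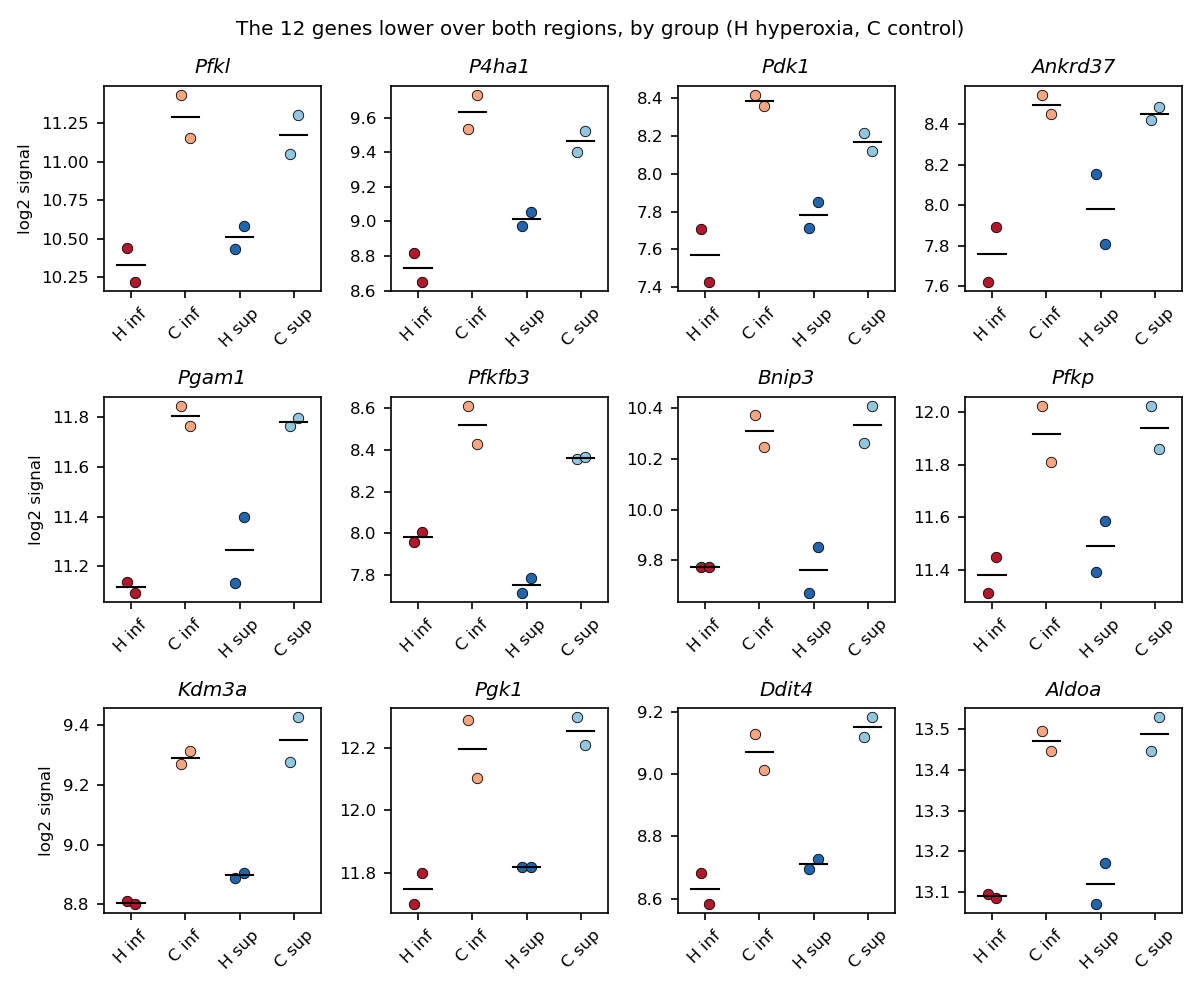
Log2 signal of the 12 genes that fell over both regions, in the hyperoxia-exposed inferior (H inf), control inferior (C inf), hyperoxia-exposed superior (H sup) and control superior (C sup) retina. Points are single arrays and bars are means of 2, axes are set per gene and do not start at 0, and in every panel all 4 exposed arrays lie below all 4 control arrays.

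The design also asks whether the inferior retina differed from the superior. Differences after hyperoxia were lower in the inferior than in the superior retina for 25 of the 32 genes, against 14196 of 28853 probe sets, and 27 genes (84.4%) were lower in both regions, against 25.5% of probe sets. Across the 32 genes the differences in the 2 regions had a Pearson correlation of 0.78, against 0.17 across all probe sets, and the regions may share animals. The median of the interaction, the inferior minus the superior change, was -0.07, against 0.003 over all probe sets. The interaction passed the test for 0 of the 32 genes and 0.00347% of probe sets. At an unadjusted p under 0.05 in limma it was negative for 3 genes (*P4ha1*, *Pdk1* and *Slc2a1*, 9.38%) and positive for 0. The shares of all probe sets were 3.03% negative and 3.02% positive. The largest interactions were -0.53 for *Slc2a1* (SE 0.21, adjusted p = 0.809), -0.45 for *P4ha1* (SE 0.15, adjusted p = 0.782), -0.43 for *Pdk1* (SE 0.16, adjusted p = 0.793) and -0.36 for *Higd1a* (SE 0.18, adjusted p = 0.829), for which the other probe set gave -0.14. Most changes were thus the more negative in the inferior retina, but with 2 arrays in each group no gene passed the test of that difference.

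Compared directly, inferior and superior retina gave 0 calls among the 32 genes. Among exposed retinas 0 genes passed, against 0.139% of probe sets. The 4 largest differences, inferior minus superior, were 0.31 for *Plod2* (SE 0.09, adjusted p = 0.408), -0.28 for *P4ha1* (adjusted p = 0.553), 0.23 for *Pfkfb3* (adjusted p = 0.585) and -0.22 for *Ankrd37* (adjusted p = 0.710). Among control retinas 0 genes passed, against 0% of probe sets, and the largest differences were 0.31 for *Slc2a1* and *P4ha2*, 0.28 for *Higd1a* and 0.25 for *Bhlhe40* (adjusted p of 0.945, 0.945, 0.930 and 0.925). Averaged over both oxygen conditions 0 genes passed, against 0.0173% of probe sets. The unadjusted threshold was met by 3, 1 and 3 genes in these comparisons (9.38%, 3.12% and 9.38%). In either direction 8.50%, 5.30% and 7.87% of all probe sets met it. The 3 genes of the last comparison were all higher in the inferior retina, against 3.67% of probe sets higher. The median over the 32 genes was -0.07 among exposed and 0.05 among control retinas, and without single arrays the exposed value ran between -0.0802 and -0.0036 (without hyperoxia superior replicate 2).

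**Figure D3:**
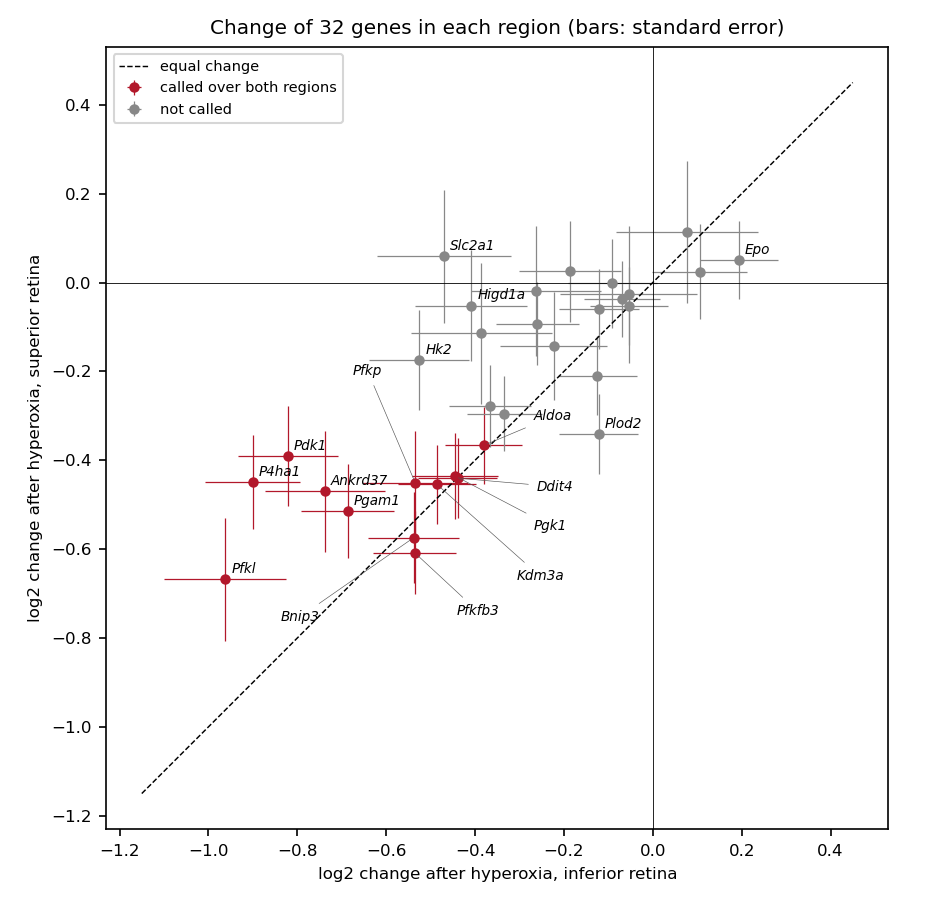
Log2 difference after hyperoxia in the inferior retina (x axis) and in the superior retina (y axis) for the 32 genes, with bars of 1 standard error and a dashed line of equal change. The 12 genes called over both regions (red) lie in the lower left, and 25 of the 32 lie above the line, where the inferior difference is the more negative.

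Other genes of these pathways, taken from broader lists, had medians nearer 0. Of 22 other genes of glycolysis and lactate handling, 17 were measured, 1 fell and 0 rose over both regions, with a median of -0.06. That gene was *Slc16a3*, the lactate exporter MCT4 of glycolytic cells, which measured 8.11 and 7.99 on the exposed inferior arrays, against 9.68 and 9.53 on the control inferior arrays, with 8.45 and 8.31 on the exposed superior arrays, against 9.23 and 9.45 on the control superior arrays. *Slc16a3* fell by 1.56 in the inferior retina (SE 0.11, adjusted p = 0.000931) and by 1.26 over both regions (SE 0.08, adjusted p = 0.000375), a more negative difference than that of any of the 32 genes. Of 40 other hypoxia targets, 38 were measured, 2 fell and 0 rose over both regions, with a median of -0.05. These were *Egln1*, a HIF hydroxylase that is itself induced by HIF, which fell by 0.55 (SE 0.08, adjusted p = 0.0227), and *Mif*, a cytokine gene, which fell by 0.46 (SE 0.06, adjusted p = 0.0155). Over both regions 0.121% of all probe sets fell. At an unadjusted p under 0.05 in limma, 4 of the 17 were lower and 2 higher. Of the 38, 10 were lower and 2 higher, against 4.02% of all probe sets lower and 4.96% higher. Differences over both regions ran between -1.26 and 0.43 in the first list and between -0.55 and 0.43 in the other. Of the 10 genes of pyruvate dehydrogenase and its regulators, 0 passed, and their median was 0.01.

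Cell type markers were read beside these values. Markers of microglia and macrophages were higher after hyperoxia, with median differences of 1.60 (inferior) and 0.54 (superior), and 11 and 1 of 12 passed. Their median deviation was 1.05 and 1.19 on the exposed inferior arrays, against -0.42 and -0.46 on the control inferior arrays, and was 0.007 and 0.05 on the exposed superior arrays, against -0.57 and -0.61 on the control superior arrays. Markers of reactive glia had medians of 1.35 and 0.53, with 5 and 2 of 6 passing. Rod markers, which mark the most abundant retinal neuron, had medians of -0.17 (inferior) and 0.007 (superior), with 0 of 8 measured passing and 2 and 0 at an unadjusted p under 0.05, and exposed inferior replicate 2 was lowest. Müller cell markers had medians of -0.08 and -0.07, and 1 of 8 passed in the inferior retina, with lower signal. Cone markers had medians of 0.09 and 0.06, and 1 of 8 passed in the inferior retina, with higher signal. Vascular endothelium (8 markers), pericytes (6), fibroblasts of choroid and sclera (6) and erythrocytes (2 of 5 measured) had medians between -0.12 and 0.16, with 0 passing. Pigment epithelium markers had medians of -0.007 and 1.18, with 0 of 11 passing limma and 1 and 9 at an unadjusted p under 0.05, all higher. Lens markers stood at a median deviation of 3.56 on control inferior replicate 2. Control superior replicate 2 was next at -0.006, and the remaining arrays ran between -0.91 and -0.17. Every lens marker was higher on control superior replicate 2 than on control superior replicate 1, with *Cryaa* at 10.15 against 6.71. Array medians ran between 6.98 and 7.05.

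Without control inferior replicate 2 the median of the 32 genes was -0.36 in the inferior retina and -0.26 over both regions, and 1 and 10 genes fell. The part of microglia, reactive glia, rods, pigment epithelium and the other cell types marked in the lower signal of the 32 genes was not tested. In the inferior retina the 8 rod markers measured ran between -0.41 (*Nrl*) and 0.03 (*Sag*). In the superior retina they ran between -0.02 and 0.03, with a median of 0.007. Only 8 of the 10 rod markers listed were measured.

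**Figure D4:**
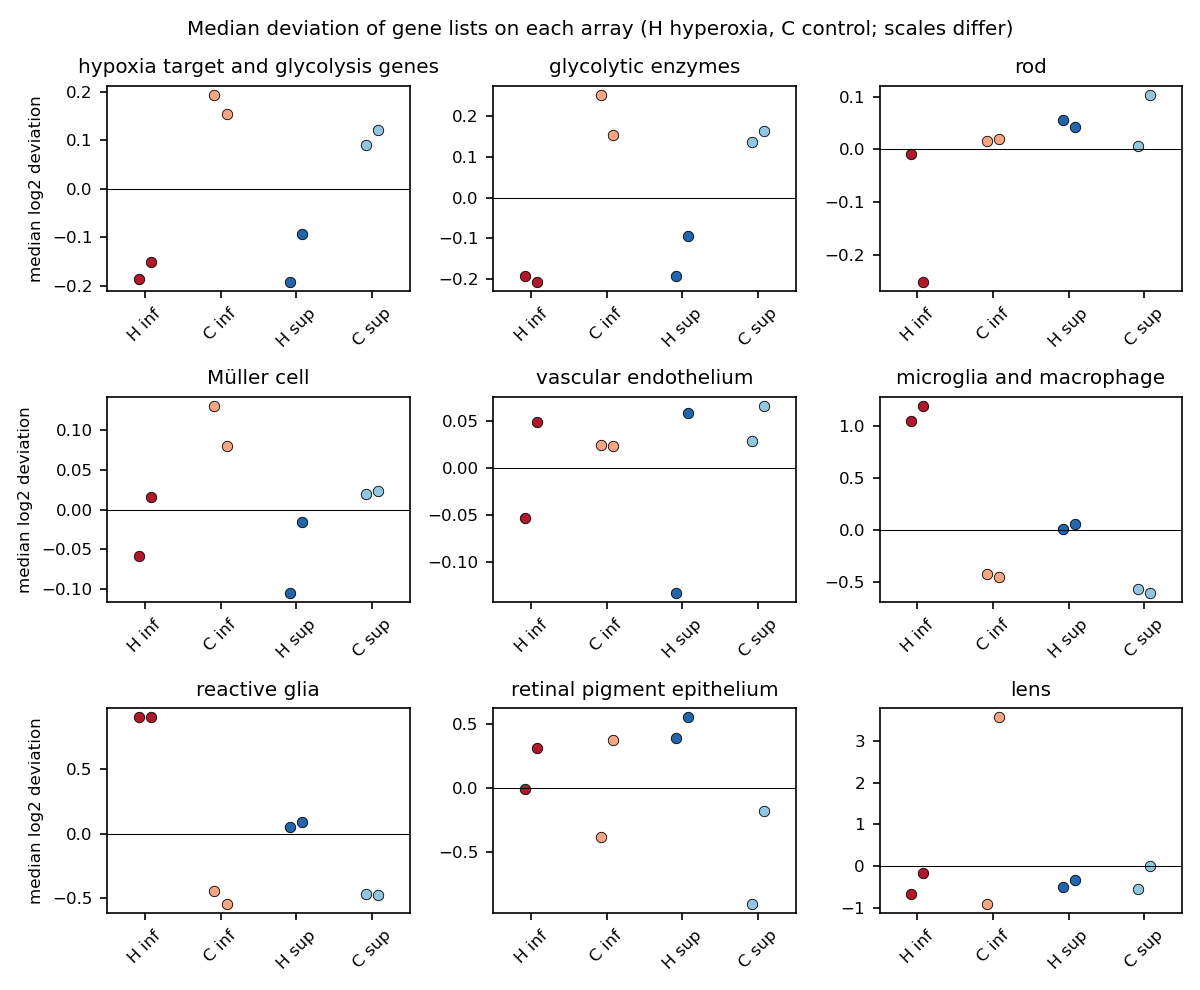
Median deviation from the mean over all arrays (log2) of the 32 genes, the glycolytic enzymes and 7 lists of cell type markers, on each array of the exposed inferior (H inf), control inferior (C inf), exposed superior (H sup) and control superior (C sup) retina. The 32 genes lie between -0.19 and -0.09 on exposed arrays and between 0.09 and 0.19 on control arrays. The lens list is highest by far on control inferior replicate 2, followed by control superior replicate 2. Vertical scales differ between panels.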

How the data were processed

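The authors deposited log2 values for 28853 probe sets on 8 Mouse Gene 1.0 ST arrays, made in Partek from core probes with RMA background correction and median polish. Software versions are not given in the sources read, nor is any quantile step. No further normalization or filter on low values was applied. The platform annotation gave 1 gene symbol for 21789 probe sets, several for 1621 and none for 5443, and the 32 genes measured matched GRCm38.p6 by Entrez ID with 0 symbols changed. Probes differ in their response, so levels of different genes were not compared.

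A model with 1 mean per group was fitted to the 8 arrays together (limma 3.58.1, R 4.3.3). It left 4 residual degrees of freedom, to which the prior added 4.47. The Benjamini-Hochberg adjustment covered every probe set of the table, and 0.05 was the threshold. The fit was checked on simulated data. The 7 comparisons were hyperoxia against control in each region and over both, inferior against superior in each oxygen condition and over both, and the interaction. The genes, roles, pathway lists and marker lists were chosen with earlier results of these data known. Array values are given for genes that passed any comparison, for the 6 with the largest difference in each region, the 4 with the largest regional difference in each condition and the 4 with the largest interaction, together with *Epo*, which was added after its values were seen. Promoters are those of RefSeq, and 6 of the 12 called genes are shown. Alternatives concerned scaling (quantile normalization or median centring), the probe sets entered (those with a mean of 6 or more, or with 1 symbol), the probe set standing for a gene (the mean, and, added after seeing the data, the lowest) and the test (a variance trend or robust prior in limma, the methods' t-test, a replicate block, a fit to a single comparison's arrays). Each array was also left out in turn.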

Additional observations from a re-analysis of the deposited data

Results flagged for a closer look

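For *P4ha1*, *Pdk1* and *Hk2* the regional difference pointed in opposite directions in the exposed and the control retina. Both exposed inferior arrays lay below both exposed superior arrays, and both control inferior arrays lay above both control superior arrays. Some margins were narrow. The highest exposed inferior *Pdk1* value was 7.708, against a lowest exposed superior value of 7.710. For *P4ha1* the lowest control inferior value was 9.536, against a highest control superior value of 9.524. The share of all probe sets with both arrangements was not counted. Taken singly, the exposed arrangement held for 9 of the 32 genes and 5348 of 28853 probe sets. The control arrangement held for 11 of the 32 genes and 5053 probe sets. The log2 regional difference (inferior minus superior) of exposed retinas minus that of control retinas was -0.451 for *P4ha1*, -0.431 for *Pdk1* and -0.352 for *Hk2*. The limma interaction did not pass for any of them (adjusted p of 0.782, 0.793 and 0.822).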

How the results depend on the processing

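With 2 arrays in each group, the counts of genes called moved with the setting, while every call of hyperoxia against control under every setting run was of lower signal. In the inferior retina 4 genes fell. There were 9 with probe sets of a mean under 6 left out, 7 with 1-symbol probe sets only, 14 with a variance trend, 0 with only the arrays of that comparison and 0 by the methods' t-test. Leaving out single arrays gave 0 (hyperoxia inferior 2), 1 (each control array), 2 (hyperoxia inferior 1) or 4 (each hyperoxia superior array), the lone array left in a group being assumed to vary like the other groups. Over both regions 12 genes fell, and the methods' t-test gave 0. Leaving out single arrays gave 0 (control superior 2), 2 (hyperoxia inferior 2, and also hyperoxia superior 1), 3 (control superior 1), 4 (hyperoxia inferior 1), 5 (hyperoxia superior 2), 7 (control inferior 1) or 10 (control inferior 2). In the superior retina, where 0 passed, a variance trend gave 1 (*Pfkfb3*). *Pfkp* lost its call under 13 of 18 alternatives and *P4ha1* over both regions under 3 of 18, and the cause was not tested. Without adjustment, at its strict p threshold of 0.01, the methods' t-test gave 14 genes lower (inferior, 43.8%, against 0.901% of probe sets) and 9 lower (superior, 28.1%, against 0.51%), and 0 higher (against 1.5% and 0.683%). The median of the genes was -0.33 for the inferior retina with the lowest probe set of each gene. With dim probe sets left out it was -0.29 for the superior retina and -0.32 over both. Leaving out single arrays gave medians of -0.26 to -0.19 for the superior retina, -0.29 to -0.24 over both and -0.0802 to -0.0036 for inferior against superior among exposed retinas. Same-numbered samples were not treated as pairs, since no source ties them. Correlations of their deviations were 0.10 between the exposed regions and 0.07 between the control regions. Between exposed and control groups, which are different animals, they ran between -0.02 and 0.14. These values therefore do not decide whether the regions share animals. A fit blocked on that number (the replicate block) called 3 genes in the inferior retina and 8 over both regions. No called value changed sign under any alternative run. Only the arrays of a comparison could not be fitted for the averages and the interaction, which use all arrays.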
